A study of Homo sapiens with 4 samples.

Results

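The EGFR family genes described here are 3 receptor genes, EGFR, ERBB2 and ERBB3, and 7 ligand genes, HBEGF, AREG, EREG, TGFA, NRG1, BTC and EGF, out of 20176 protein-coding genes in the annotation. They were chosen by name, with earlier results of these data known. For each gene, a region with reduced H3K4me3 was sought within 3 kb of the gene start or of any annotated transcription start site (TSS). H3K4me3, trimethylation of lysine 4 of histone H3, is a mark found mainly around the start sites of transcribed genes. Native H3K4me3 ChIP-Seq, on MNase-digested chromatin that was not crosslinked, was performed in MDA-MB-231, a human cell line from a triple-negative breast cancer, which lacks hormone receptors and ERBB2 amplification. The cells were untreated or treated with Tat-SID at 1 μM or 2.5 μM, and input DNA was sequenced from the same line. The duration of treatment was 3 days. Tat-SID is a decoy peptide that joins the SIN3 interaction domain of MAD to a Tat nuclear localization signal and competes for the PAH2 domain of the SIN3 scaffold. There was 1 library per condition, of 1 cell line, so no spread between replicates exists and no difference between conditions could be tested. The comparison asks where in the genome H3K4me3 differs after the peptide. No library of cells given a scrambled peptide is among the samples. Effects of the SIN3 interaction domain and of a Tat peptide as such therefore cannot be told apart.

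The deposited lists hold 141 regions reduced at 1 μM and 2063 regions reduced at 2.5 μM, each by comparison with the same untreated library, and 3 regions increased at 2.5 μM. They give positions on GRCh37 and no read number, fold change or FDR. The size of a reduction and the depth behind it cannot be read from them, and a gene without a listed region did not pass the authors' threshold, which does not show that its H3K4me3 was unchanged. Increased regions at 1 μM were not analysed here.

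EGFR family receptors sit in the plasma membrane, form dimers when a ligand binds and then phosphorylate each other on tyrosines that recruit signaling adaptors. The ligands are made as membrane-anchored precursors that proteases cut loose. EGF, TGFA, AREG, BTC, HBEGF and EREG bind EGFR, whereas NRG1 binds ERBB3 and the related receptor ERBB4. ERBB2 binds no known soluble ligand and acts as the partner of the other receptors, and ERBB3 has little kinase activity of its own. Triple-negative breast cancers lack ERBB2 amplification and often carry abundant EGFR, and AREG is a well known growth factor of the mammary gland.

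The sequences just before the gene start are shown for AREG and EREG, the ligand genes whose gene starts lay in reduced regions, and for HBEGF and EGFR, whose gene starts did not. Each is the 150 bases that end next to the gene start, 5′ to 3′ on the strand of the gene, read from GRCh37, with matches to TATAAA, TGACGTCA and GGGCGG on either strand in capitals.
AREG: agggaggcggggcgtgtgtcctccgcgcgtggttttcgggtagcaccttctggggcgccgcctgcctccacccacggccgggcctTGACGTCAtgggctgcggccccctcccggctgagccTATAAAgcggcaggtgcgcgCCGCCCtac
EREG: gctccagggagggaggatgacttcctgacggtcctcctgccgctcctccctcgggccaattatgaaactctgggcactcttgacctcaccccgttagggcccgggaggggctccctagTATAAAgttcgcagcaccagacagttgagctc
HBEGF: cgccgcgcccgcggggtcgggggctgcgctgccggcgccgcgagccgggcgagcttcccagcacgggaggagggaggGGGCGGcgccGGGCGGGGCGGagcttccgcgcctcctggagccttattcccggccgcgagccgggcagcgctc
EGFR: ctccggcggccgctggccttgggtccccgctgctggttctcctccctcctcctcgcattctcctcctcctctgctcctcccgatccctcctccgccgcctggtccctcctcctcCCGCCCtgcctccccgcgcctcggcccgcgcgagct
They lie at chr4:75310703-75310852 on the plus strand, chr4:75230712-75230861 on the plus strand, chr5:139726189-139726338 on the minus strand and chr7:55086560-55086709 on the plus strand, respectively. The AREG and EREG sequences each hold TATAAA, the core of the TATA box, starting at position -29 and position -32 from the gene start, which is counted as 0. The HBEGF and EGFR sequences have no TATAAA. GC box matches (GGGCGG or its reverse complement) number 3 for HBEGF, 1 for EGFR and 1 for AREG, and the EREG sequence has none. The GC content of these 150 bases was 72.7% for AREG, 60.7% for EREG, 82.7% for HBEGF and 74.7% for EGFR.

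At 2.5 μM Tat-SID, 3 of the 10 genes had a region of reduced H3K4me3 at one of their start sites, within 3 kb, and all 3 were ligand genes: AREG, EREG and NRG1. The other 4 ligand genes and the 3 receptor genes had none. At 1 μM none of the 10 had one. Over all 20176 protein-coding genes, the share with such a region was 10.8% at 2.5 μM (2178 genes, exact Clopper-Pearson 95% confidence interval 10.4% to 11.2%, covering counting error over genes only) and 0.674% at 1 μM (136 genes, 0.566% to 0.797%). The members' share at 2.5 μM was 30.0%, but 1 gene more or fewer moves a share of 10 genes by 10 percentage points, and AREG and EREG are neighbours on chromosome 4, where the share of protein-coding genes with a region was higher than over the genome, at 19.4% (148 of 761, 16.7% to 22.4%). At 1 μM the background was so low that 0 of 10 is near it. At 2.5 μM, 0 of 3 receptor genes is also near the background of 10.8%, and receptors were not tested against ligands. The background counts all protein-coding genes, including any without H3K4me3 in untreated cells, where no reduction could be listed. Which background genes or members those are is not known, because the untreated library has no list of its own here. In the annotation as a whole, the 136 genes with a region at 1 μM all had one at 2.5 μM as well and made up 6.24% of the 2178 genes at the higher dose, and both comparisons used the same untreated library.

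**Figure D1:**
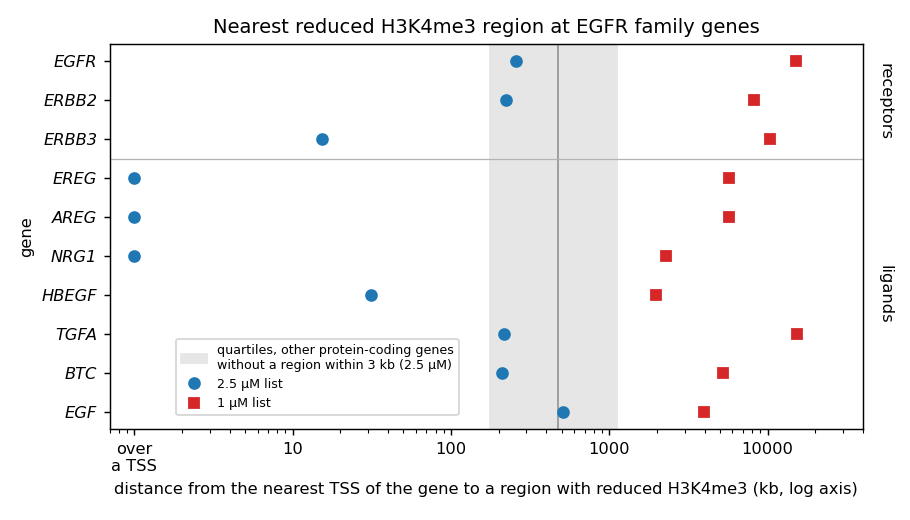
Distance in kb, on a log axis, from the nearest annotated TSS of each gene to the nearest region of reduced H3K4me3 at 2.5 μM (circles) and 1 μM (squares), with the quartiles and median of the 17920 protein-coding genes of chromosome X and the autosomes without a 2.5 μM region within 3 kb in grey. EREG, AREG and NRG1 have a region over a TSS at 2.5 μM, ERBB3 and HBEGF have one at 15.4 kb and 31.1 kb, and the 1 μM distances run from 1971 kb (HBEGF) to 15412 kb (TGFA).

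AREG encodes amphiregulin, a ligand of EGFR. The gene (ENSG00000109321.11_12) lies on the plus strand of chromosome 4 from 75310853 to 75320722, and the 2.5 μM region ran from 75310151 to 75315549, a length of 5399 bp. It began 702 bp upstream of the gene start and ended 4696 bp downstream. All 3 annotated TSS of the gene lay in it. It held exons 1 to 3 of the 6 exons of the canonical transcript whole, with 722 bp of exon and 3975 bp of intron, and no start of another gene. Of the 1853 protein-coding gene starts that lay in a 2.5 μM region, the median reach was 1744 bp upstream (quartiles 1139 and 2521 bp) and 3200 bp downstream (2388 and 4284 bp). The AREG region therefore reached less far upstream than the lower quartile and farther downstream than the upper quartile. The nearest 1 μM region was 5674 kb away.

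AREG has a near-identical copy in GRCh37, AREGB (ENSG00000205595.3), on the same strand from 75480629 to 75490486, with its start 169.776 kb downstream of that of AREG. A region of 5549 bp, from 75479751 to 75485299, lay over the AREGB start and reached 878 bp upstream and 4670 bp downstream. From 3 kb before to 3 kb after the gene start, 5967 aligned bases of the copies were the same and 5 differed (99.92% identity), and the 150 bases printed for AREG are identical at AREGB. Of the 100-base sequences within the AREG region, the read length of the libraries, 83.4% occur at a second place in the genome, as do 84.1% of those in the AREGB region. The aligner was set to report a single alignment for a read with several. A read of a sequence found in both copies could thus be counted at either place, and the regions at AREG and AREGB are not separate observations. A RefSeq table of the later assembly GRCh38.p14 lists 1 AREG gene, with AREGB as a synonym. In the windows of EGFR, HBEGF, BTC, EGF and NRG1 no 100-base sequence occurred more than once, and the shares were 14.8% for ERBB3, 3.73% for TGFA, 1.85% for EREG and 0.0847% for ERBB2. Some of these sequences occurred at up to 651 places for ERBB3, 1885 for TGFA and 190 for EREG. The aligner left out reads with more alignments than a set limit, which was below these numbers.

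EREG encodes epiregulin, a ligand of EGFR and ERBB4. The gene (ENSG00000124882.4_6) lies on the plus strand of chromosome 4 from 75230862 to 75254466, and its 2.5 μM region ran from 75228601 to 75235049, a length of 6449 bp, longer than 77.8% of the regions on the list. It reached 2261 bp upstream and 4187 bp downstream of the gene start, both between the quartiles of regions over a gene start. It held exon 1 of the 5 exons of the canonical transcript, 3957 bp of intron and 2 of the 3 annotated TSS, and the remaining TSS, of a non-coding transcript, lay 13.1 kb beyond it. The nearest 1 μM region was 5740 kb away.

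**Figure D2:**
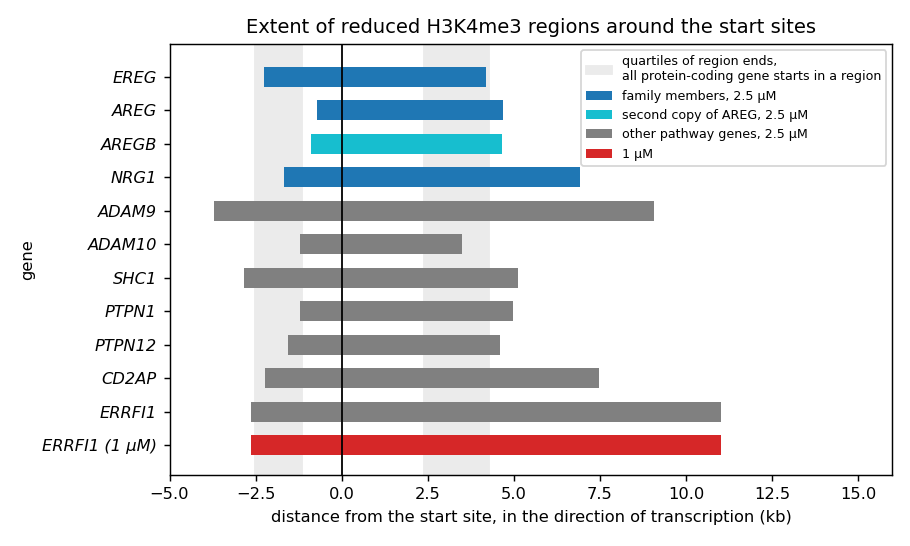
Extent of the reduced regions at 2.5 μM, and at 1 μM for ERRFI1, in kb from the gene start (for NRG1, from the start of its canonical transcript) in the direction of transcription, with the quartiles of all regions over a protein-coding gene start as grey bands. The AREG region reaches 702 bp upstream, short of the grey band, and the NRG1 region 6920 bp downstream, past it.

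NRG1 encodes neuregulin 1, made in several isoforms that begin at different promoters and are grouped by their first exons. The gene (ENSG00000157168.22_17) lies on the plus strand of chromosome 8 from 31496738 to 32713184, with 35 annotated transcripts and 32 distinct TSS in 9 groups. The 2.5 μM region ran from 32404151 to 32412749, a length of 8599 bp, longer than 92.4% of the regions on the list. It held 11 TSS, of 12 transcripts, 9 of them coding, in a single group that begins 909 kb downstream of the gene start. The start of the canonical transcript, at 32405829, was among them, with 1678 bp of the region upstream of it and 6920 bp downstream, and exon 1 of its 12 exons lay in the region together with 6405 bp of intron.

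The other 8 groups of NRG1 start sites lay outside the region, at distances from 50.4 kb to 906 kb, and none had another 2.5 μM region within 3 kb. The group at the gene start, with 8 transcripts of which 7 are coding, was the farthest, at 906 kb. Of the 2178 protein-coding genes with a 2.5 μM region, 261 had it only near an internal start like NRG1. A gene with many start sites has more places where a region counts, and the background was not matched for their number. The nearest 1 μM region was 2285 kb from an NRG1 start site.

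**Figure D3:**
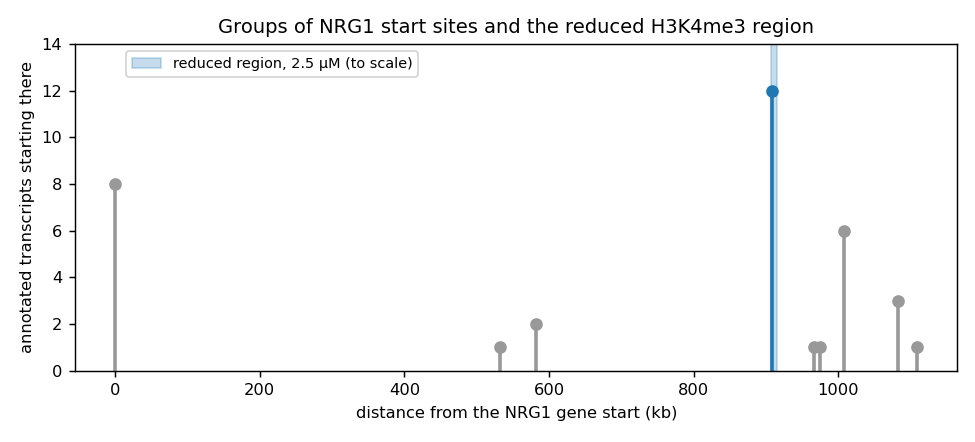
Groups of annotated NRG1 start sites by their distance in kb from the gene start, with the number of transcripts that start in each and the 8599 bp region of reduced H3K4me3 at 2.5 μM as a shaded band drawn to scale. The band covers the group with 12 transcripts, 909 kb from the gene start, and no other group.

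The receptor genes had no reduced region within 3 kb of any of their start sites at either dose. At a background of 10.8% at 2.5 μM, 0 of 3 does not set them apart from other genes. ERBB3 (chromosome 12, 56470583 to 56497289, plus strand, 32 TSS) came closest, with a 2.5 μM region from 56509001 to 56513599 that lay 15.4 kb from its nearest TSS and 31.9 kb from the group of TSS at the gene start. That region held the starts of ESYT1, RPL41 and ZC3H10. Among the members it is the one just outside the window, and the members inside the window all had a TSS within a region. Of the 17920 protein-coding genes of chromosome X and the autosomes without a 2.5 μM region in the window, 1.72% were nearer to one than ERBB3 was, and the median distance was 475 kb (quartiles 176 and 1120 kb).

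EGFR (ENSG00000146648.21_13, chromosome 7, 55086710 to 55279321, plus strand) had its nearest 2.5 μM region 258 kb away, at SEC61G, a subunit gene of the protein translocation channel. ERBB2 (chromosome 17, 37844167 to 37886679, plus strand) had its nearest 222 kb away, at the start of CDK12, which encodes a transcription elongation kinase. The shares of region-less genes that were nearer were 33.9% and 30.2%, so both distances are ordinary among such genes. All 12 EGFR start sites, in 5 groups along the gene, and all 21 ERBB2 start sites, in 6 groups, lay at these distances or farther. At 1 μM the nearest regions were 15091 kb, 8195 kb and 10343 kb from EGFR, ERBB2 and ERBB3.

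Of the 4 ligand genes without a region, HBEGF, which encodes heparin-binding EGF-like growth factor, came closest. Its gene (chromosome 5, 139712428 to 139726188, minus strand) had a 2.5 μM region 31.1 kb from an internal start of a non-coding transcript and 42.6 kb from the gene start, at PFDN1, a subunit gene of the chaperone prefoldin. Of the region-less genes, 4.55% were nearer. At 1 μM the nearest region to HBEGF was 1971 kb away.

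TGFA, which encodes transforming growth factor alpha, had its nearest 2.5 μM region 215 kb away, at the starts of C2orf42 and TIA1. BTC, which encodes betacellulin, had its nearest 210 kb away, over AREGB. The BTC distance and its rank therefore rest on a region that is not a separate observation from that at AREG. EGF, the ligand that gave the family its name, had the most distant region of the 10 genes, 511 kb from its nearest start site, and that region held no start of a protein-coding gene. The shares of region-less genes that were nearer were 29.4%, 28.9% and 52.0%, respectively. The 3 regions increased at 2.5 μM were not near any member: none lay on chromosome 2, 4, 7, 8 or 12, and those on chromosomes 17 and 5 were 15585 kb from ERBB2 and 90274 kb from HBEGF.

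In GRCh37, EPGN, EREG, AREG with its near-identical copy AREGB, and BTC form a run of EGFR ligand genes on chromosome 4. It spans 545.546 kb from the start of EPGN to the end of BTC. EREG, AREG and the copy AREGB each had a 2.5 μM region over the gene start, and the genes at either end had none. The regions at AREG and AREGB are not separate observations. EPGN, which encodes epigen and is not among the 10 genes, lay 53.8 kb from the EREG region. The starts of EREG and AREG are 79.991 kb apart. With 500 kb added on each side, the stretch held 16 protein-coding genes, 7 of them with a region, and 7 regions in all. AREG and AREGB are counted there as 2 genes and 2 regions although most of their reads cannot be told apart. The share over the chromosome was 19.4%, and the stretch was chosen around EREG and AREG, which have regions. The further 4 genes were CXCL1, CXCL2 and CXCL3, which encode chemokines that attract neutrophils, and MTHFD2L, a mitochondrial enzyme of folate metabolism. No 1 μM region lay in the stretch.

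**Figure D4:**
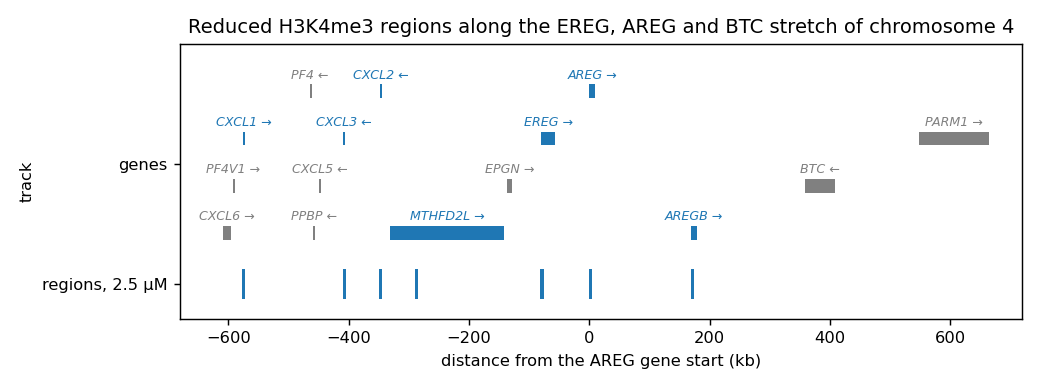
Regions of reduced H3K4me3 at 2.5 μM and named protein-coding genes on chromosome 4, in kb from the AREG gene start, with genes that have a region within 3 kb of a TSS in blue, the others in grey and arrows for the strand. An unnamed gene that overlaps PF4 and PPBP is not drawn, and regions and genes narrower than 4 kb and 3 kb are widened to stay visible. EREG, AREG and AREGB each have a region at their starts, and EPGN and BTC have none.

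The promoters of the members differed in base composition, which the choice of genes did not use. Within 1 kb on each side of the gene start, EGFR had a GC content of 67.5% and a ratio of observed to expected CpG of 0.842, TGFA 64% and 0.685, and HBEGF 59.6% and 0.646. Where the GC content exceeds 50% and the ratio exceeds 0.6, a promoter is called a CpG promoter here, and these 3 were CpG promoters and had no reduced region. AREG, with 46.3% and 0.702, and EREG, with 50.6% and 0.492, were not CpG promoters by this definition and had one. The internal NRG1 start in the region was a CpG promoter, at 65.6% and 0.846, and so was the NRG1 gene start outside it, at 55.7% and 0.787.

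The remaining promoters, read at the gene starts of ERBB2 (49.7% and 0.475), ERBB3 (57.9% and 0.435), BTC (54.9% and 0.512) and EGF (41.1% and 0.190), were not CpG promoters and had no region. The canonical transcripts of ERBB2 and ERBB3 start at 37856317 and 56473949, more than 1 kb from those gene starts. Composition was not read there. CpG promoters therefore occurred among the members both with and without a region. Over 20084 protein-coding promoters, 14.8% of the 9420 CpG promoters and 7.34% of the other 10664 had a 2.5 μM region. Over their whole length the regions had a GC content of 41.2% at AREG, 41.4% at EREG and 45.2% at NRG1, beside a median of 45.1% on the list.

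**Figure D5:**
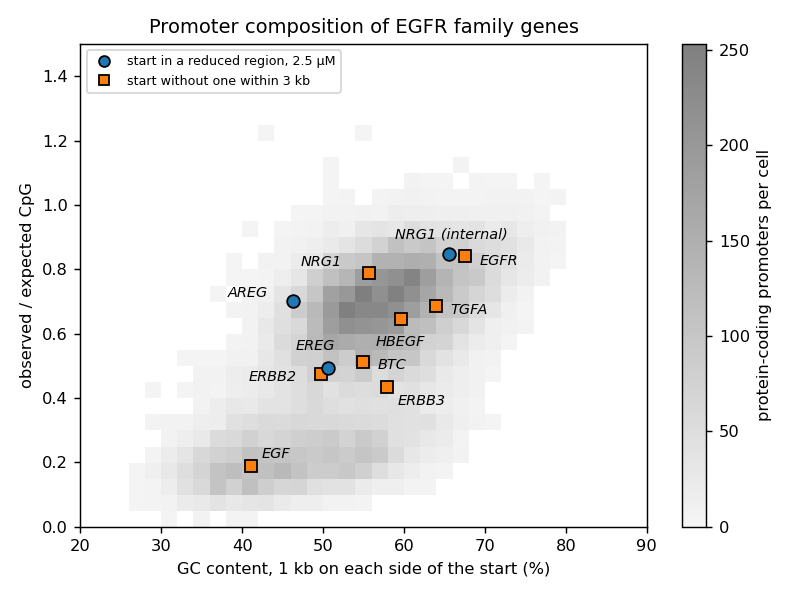
GC content in percent and ratio of observed to expected CpG within 1 kb of the gene start of each member, and of the internal NRG1 start, over the number of protein-coding promoters per cell of the plane in grey. The starts within a reduced region at 2.5 μM (circles) lie at 46.3% (AREG), 50.6% (EREG) and 65.6% (NRG1 internal start) GC, and EGFR, at 67.5%, has no region.

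Matches to 5 motifs were read from 250 bases before to 50 bases after each gene start, on both strands. The canonical start of NRG1 was read as well, but those of ERBB2, ERBB3 and TGFA, which lie outside these stretches, were not. TATAAA occurred in 10.9% of all 20084 promoters and in 10.1% of those with a 2.5 μM region. Among the members it occurred at AREG and EREG, at ERBB3 at position 10 and at the NRG1 gene start at position -189, and not at the internal NRG1 start. TGACGTCA, the cAMP response element, occurred at AREG at position -65 alone among the members, and in 2.29% of all promoters and 3.77% of those with a region. GGGCGG, the GC box, had 5 matches at HBEGF, 3 at EGFR, 2 each at ERBB2 and TGFA and 1 each at AREG and BTC. The internal NRG1 start had 2 more. The GC box occurred in 52.2% of all promoters and 58.7% of those with a region.

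TGACTCA, the AP-1 site, occurred at EGF at position -17 alone among the members. It occurred in 3.98% of all promoters and 3.67% of those with a 2.5 μM region. No member held CACGTG, the E-box bound by MYC and MAD family dimers, which occurred in 8.34% of all promoters and 7.85% of those with a region. In the printed sequences no motif overlaps a different one, and at HBEGF the last GC boxes share 1 base. A match is a description of the letters and not of binding.

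Of 40 other genes of the pathway, 7 (17.5%) had such a region at 2.5 μM and 1 (2.50%), ERRFI1, at 1 μM, beside 10.8% and 0.674% of all protein-coding genes. None of the 5 further receptor and ligand genes, ERBB4, EPGN, NRG2, NRG3 and NRG4, had one at either dose. In the group of 7 genes for the release of ligands, ADAM9 and ADAM10 had one at 2.5 μM, both metalloproteases that cut membrane proteins. In the group of 15 adaptors and proximal effectors it was SHC1 alone (6.67%), whose product links the phosphorylated receptors to GRB2. Of the 13 genes for receptor turnover and inhibition, 4 (30.8%) had one: ERRFI1, PTPN1, PTPN12 and CD2AP. The background is again 10.8%, and 1 gene is 7.69% of this group. PTPN1 and PTPN12 encode tyrosine phosphatases, and CD2AP an adaptor of receptor endocytosis.

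ERRFI1 encodes MIG6, which binds the EGFR kinase domain and inhibits it. Its region, on chromosome 1 from 8075351 to 8088999, was the same at both doses, 13649 bp long, with 2630 bp ahead of the gene start and 11018 bp behind it. It was longer than 99.1% of the 2.5 μM regions and 89.4% of the 1 μM regions, held exons 1 to 3 of 4 and also held the start of the divergent transcript ERRFI1-DT. The regions at the other 6 genes were 12799 bp at ADAM9, 9699 bp at CD2AP, 7949 bp at SHC1, 6199 bp at PTPN1, 6149 bp at PTPN12 and 4699 bp at ADAM10. Those at ADAM9, ADAM10, SHC1 and CD2AP also held the start of at least 1 other gene (TM2D2 at ADAM9, CKS1B at SHC1). The reduction there cannot be assigned to a single promoter. The AREG, EREG and NRG1 regions held no other gene's start. Most reads of the AREG region cannot be told apart from those of AREGB, so that reduction cannot be assigned to a single copy either.

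By reach upstream and downstream of the gene start, the protein-coding genes most like AREG among all those with a region over the gene start were CSTF3 (732 bp upstream and 4766 bp downstream, a summed difference of 100 bp), ENSG00000288623 (144 bp) and CAMSAP2 (150 bp). Those most like EREG were BMPR2 (2199 bp and 4199 bp, a summed difference of 74 bp), PHIP (100 bp) and PPP1R12A (104 bp). Region ends fall on a grid set by the caller's windows, so small differences in reach are at the resolution of the lists.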

How the data were processed

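Native H3K4me3 ChIP-Seq libraries, 1 per condition, were sequenced by the authors as 100-base single-end reads from MDA-MB-231 cells. The submitters' processing notes name FastQC 0.10.0, Bowtie 1.0.0, MACS2 2.1.0, SICER and hg19, and the paper's methods state that SICER-df compared each treated library with the untreated one. The names of the lists give the direction of change and an FDR threshold, which is the one of the paper's results and stricter than that of its methods. The deposited lists hold positions only, with no count or signal, read numbers per library were not analysed here, and intervals cover counting error over genes only.

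Positions are printed from 1. Regions were placed within 3 kb of gene starts and transcript TSS of GENCODE release 44 lifted to GRCh37 (64486 genes, 20176 protein-coding). The overlap step was tested on simulated data. TSS formed separate groups where neighbouring ones were more than 3 kb apart, so a group could span more than 3 kb. Composition, motifs and 100-base copies were read from GRCh37. The canonical transcript is the one tagged so in the annotation. All members and every pathway gene with a region were named, with the 3 genes of most similar reach. The members and lists were chosen with earlier results of these data known. The alternatives were window width, TSS set, region length, merging and, added after seeing the data, leaving out AREG and AREGB. Input and untreated libraries have no list of their own here. Python 3.11.15, numpy 2.4.6, scipy 1.17.1 and matplotlib 3.10.9 were used.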

Additional observations from a re-analysis of the deposited data

How the results depend on the processing

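At 2.5 μM, 3 members had a region under every alternative for window width, region length and merging and with the starts of coding transcripts only. With the gene start only, NRG1 was not counted and 2 remained, AREG and EREG, by construction. Without the regions at AREG and AREGB, an alternative chosen after seeing the data, 2 remained, EREG and NRG1. At 1 μM the number was 0 under this alternative and the other 8, and the pathway genes stayed at 7 at 2.5 μM and 1 at 1 μM. The share of protein-coding genes moved with the gene start only, to 0.496% at 1 μM and 9.50% at 2.5 μM, and at 2.5 μM to 11.6% with 10 kb on each side and to 8.73% with regions of at least 4000 bp. In each case fewer or more start sites or regions were eligible by construction. No paired analysis was possible because no condition has a second library. The lists carry no depth and read numbers per library were not analysed here, so what depth limits was not measured.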
